A study of Mus musculus with 14 samples.

Results

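The genes described here are Pou5f1, Sox2, Klf4 and Myc, which encode Oct4, Sox2, Klf4 and cMyc, the 4 factors that were expressed from outside in this study to reprogram mouse fibroblasts. They were chosen by name, as 4 of 22026 genes in the RNA tables, and all 4 were found. RNA was sequenced from 4 libraries, 1 per group and without replicates. The groups were AID-null tail fibroblasts after 3 weeks of reprogramming, wildtype tail fibroblasts after 3 weeks of reprogramming, untreated AID-null tail fibroblasts and untreated wildtype tail fibroblasts. Both 3-week cultures received the same factors, and they were sequenced whole, not as picked clones. The labels give neither the vector nor the species of the delivered sequences, nor the strain or the age of the animals. Relatives of each factor (other Pou, Sox, Klf and Myc genes) were read from the same libraries as context.

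Oct4 and Sox2 bind DNA side by side at composite octamer and HMG-box elements and keep pluripotent cells in that state, and each is also active at its own gene. Klf4 is a zinc-finger factor of the Krüppel-like family that acts in epithelia, in growth arrest and, together with its relatives Klf2 and Klf5, in embryonic stem cells. Myc pairs with Max at E-boxes and drives genes of ribosome production and growth. Fibroblasts normally make Klf4 and Myc themselves, whereas Pou5f1 is silent in them.

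Promoters of Pou5f1, Sox2 and Klf4 are shown because the RNA of the first pair differed between the cultures by nearly the same ratio and that of Klf4 by another. Those of Klf2 and Mycn are shown because these relatives had the largest differences in their families. The sequences are from a set of promoters at RefSeq gene starts, in which 3 of the 4 factor genes, all but Myc, were matched. They run 5′ to 3′ from 250 bases before the gene's start to 50 bases after it. Capitals mark matches, on either strand, to AGGTCA (the nuclear receptor half-site), ATGCAAA (the core of the octamer), CACCC (the core of Klf-bound elements), CACGTG (the E-box of Myc and Max) and GGGCGG (the GC box of Sp and Klf proteins). Matches that overlap or touch run together in capitals.
Pou5f1 (GRCm38.p6, chr17:35505782-35506081, plus strand): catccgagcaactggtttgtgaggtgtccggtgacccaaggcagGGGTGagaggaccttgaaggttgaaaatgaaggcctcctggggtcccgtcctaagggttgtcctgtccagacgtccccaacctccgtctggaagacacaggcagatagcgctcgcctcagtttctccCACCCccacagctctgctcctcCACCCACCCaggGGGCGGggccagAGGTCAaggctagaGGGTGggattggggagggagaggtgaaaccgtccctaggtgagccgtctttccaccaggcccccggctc
Sox2 (GRCm38.p6, chr3:34649745-34650044, plus strand): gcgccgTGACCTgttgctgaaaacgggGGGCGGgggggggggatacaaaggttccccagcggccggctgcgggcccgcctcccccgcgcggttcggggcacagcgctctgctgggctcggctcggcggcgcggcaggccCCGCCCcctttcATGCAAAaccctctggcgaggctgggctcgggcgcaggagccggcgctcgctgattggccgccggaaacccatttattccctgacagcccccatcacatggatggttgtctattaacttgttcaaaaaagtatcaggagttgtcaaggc
Klf4 (GRCm38.p6, chr4:55532426-55532725, minus strand): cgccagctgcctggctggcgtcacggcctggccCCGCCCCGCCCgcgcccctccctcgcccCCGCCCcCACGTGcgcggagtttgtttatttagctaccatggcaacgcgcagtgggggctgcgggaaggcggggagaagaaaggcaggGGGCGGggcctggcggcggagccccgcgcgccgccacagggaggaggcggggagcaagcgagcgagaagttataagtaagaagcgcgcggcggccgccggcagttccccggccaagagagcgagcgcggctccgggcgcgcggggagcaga
Klf2 (GRCm38.p6, chr8:72318812-72319111, plus strand): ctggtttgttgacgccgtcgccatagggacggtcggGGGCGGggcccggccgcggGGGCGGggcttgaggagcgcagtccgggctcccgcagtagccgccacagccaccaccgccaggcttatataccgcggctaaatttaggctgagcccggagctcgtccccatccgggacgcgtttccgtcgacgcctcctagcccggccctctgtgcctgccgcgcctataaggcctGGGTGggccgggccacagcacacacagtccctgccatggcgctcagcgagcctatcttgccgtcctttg
Mycn (GRCm38.p6, chr12:12941787-12942086, minus strand): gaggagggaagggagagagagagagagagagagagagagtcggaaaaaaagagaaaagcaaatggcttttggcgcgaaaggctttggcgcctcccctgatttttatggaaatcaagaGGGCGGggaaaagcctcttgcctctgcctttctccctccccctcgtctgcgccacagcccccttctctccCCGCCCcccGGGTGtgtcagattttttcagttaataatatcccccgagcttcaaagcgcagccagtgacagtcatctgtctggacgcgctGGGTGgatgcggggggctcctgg

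Pou5f1 had the lowest CpG content, with 11 CpG sites in 300 bases, against 40 in Klf4, 32 in Klf2, 27 in Sox2 and 14 in Mycn. AGGTCA was found in Pou5f1 and Sox2, and in 16.3% of all 32851 promoters of that length. ATGCAAA was found in Sox2 alone of the promoters shown and in 4.63% of all promoters. CACGTG was found in Klf4 alone of them and in 7.15% of all promoters. GGGCGG was found in each of the promoters shown and in 35.7% of all promoters. CACCC was found 5 times in Pou5f1, 2 times in Mycn, 1 time in Klf2, not in Sox2 or Klf4, and in 57.5% of all promoters. A match is a description of these letters and not a bound site.

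Libraries are called here by their labels. FPKM counts fragments per kilobase of a transcript, scaled to the mapped fragments of its library, so it is a level per length. The genotype labels differed in sex-linked RNA. The Y-linked Eif2s3y was at 274 and 184 FPKM in the libraries labelled AID-null and listed at 0 in both labelled wildtype, and Xist was at 1.78 and 0.99 FPKM with the AID-null label and at 149 and 456 FPKM under the wildtype label. Genotype and this difference cannot be told apart. Summed FPKM ranged over the libraries from 1708869 to 2012350, and 13381 to 14668 genes reached 1 FPKM. With 1 library per group there is no spread between samples and no test, so each difference below compares libraries.

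Pou5f1 stood at 1539 FPKM in the 3-week culture labelled AID-null and at 2390.5 FPKM in that labelled wildtype, against 2.26 FPKM in the AID-null fibroblasts and 2.32 FPKM in the wildtype fibroblasts. It was near the bottom of the detected range in both fibroblast libraries, and at rank 95 of all genes in the AID-null culture and rank 48 in the wildtype culture. Sox2 stood at 476 FPKM in the AID-null culture and 738 FPKM in the wildtype culture, against 16.05 and 7.61 FPKM in the AID-null and wildtype fibroblasts. Its ranks were 555 and 339 in the AID-null and wildtype cultures and 10089 and 11196 in the fibroblasts.

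Klf4 stood at 43.3 FPKM in the AID-null culture and 107 FPKM in the wildtype culture, and at 68.8 FPKM in the AID-null fibroblasts and 107 FPKM in the wildtype fibroblasts. Both libraries labelled wildtype had the same level, and both labelled AID-null were below it. Myc stood at 40.5 FPKM in the AID-null culture and 81.6 FPKM in the wildtype culture, against 135 and 127 FPKM in the AID-null and wildtype fibroblasts. Both 3-week cultures were thus below both fibroblast libraries for Myc. These levels add delivered and endogenous transcripts wherever the delivered ones were read, and the files do not separate them.

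**Figure D1:**
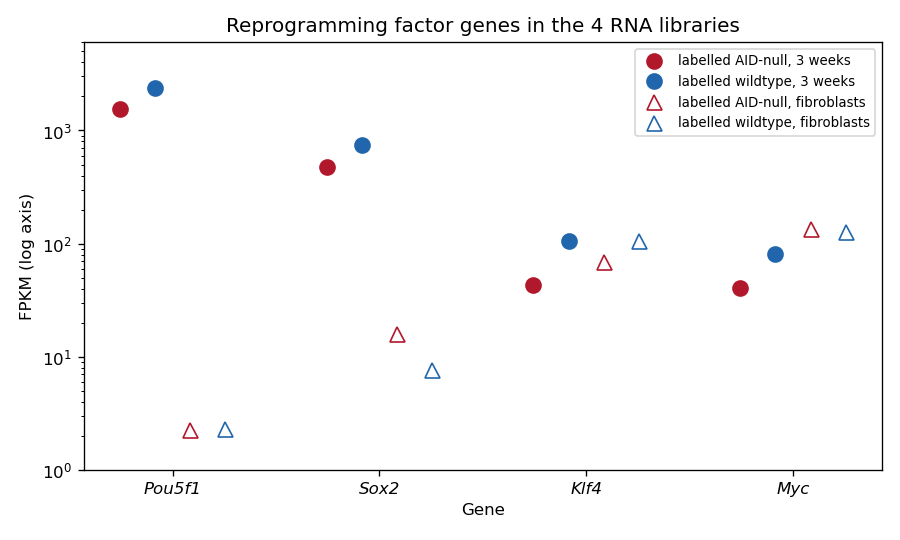
FPKM on a log axis of the 4 factor genes in each of the 4 RNA libraries, 1 point per library. Pou5f1 and Sox2 are far higher in both 3-week cultures than in fibroblasts, Klf4 spans 43.3 to 107 FPKM, and Myc is highest in the fibroblasts.

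By FPKM the order of the genes was Pou5f1, Sox2, Klf4, Myc in both 3-week cultures. In both fibroblast libraries it was Myc, Klf4, Sox2, Pou5f1, the reverse. Klf4 and Myc were close to each other at 3 weeks, with a ratio of Klf4 to Myc of 1.07 in the AID-null culture and 1.31 in the wildtype culture, and no replicate shows whether such neighbours differ. The ratio of Pou5f1 to Sox2 was 3.23 in the AID-null culture and 3.24 in the wildtype culture, and 0.141 and 0.305 in the AID-null and wildtype fibroblasts. Pou5f1 exceeded Klf4 by 35.5 times in the AID-null culture and 22.4 times in the wildtype culture, and Myc by 38.0 and 29.3 times. Set against Nanog, a pluripotency factor that was not delivered, Pou5f1 was 5.80 times as high in the AID-null culture and 6.88 times as high in the wildtype culture, and Sox2 was 1.80 and 2.13 times as high.

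The first comparison asked how the factor genes stood after 3 weeks of factor expression relative to the starting fibroblasts of the same label. Genes were compared by the difference in log2(FPKM + 1), a scale that makes the change of low genes look smaller, and a gene was counted at a difference of at least 1 (2-fold) if it had at least 1 FPKM in either library. Under the AID-null label 2 of the 4 genes were higher, where 21.3% of 15076 genes were, and 1 was lower, where 17.6% were. Under the wildtype label 2 were higher, where 27.0% of 15196 genes were, and 0 were lower, where 17.7% were. The log2 differences under the AID-null label were 8.88 for Pou5f1, 4.81 for Sox2, −0.66 for Klf4 and −1.72 for Myc. Under the wildtype label they were 9.49 for Pou5f1, 6.42 for Sox2, −0.00054 for Klf4 and −0.63 for Myc. Pou5f1 lay at percentiles 99.98 and 99.97 of all compared genes under the AID-null and wildtype labels, and Sox2 at percentiles 98.8 and 99.4. Klf4 and Myc, although delivered, were no higher at 3 weeks than in fibroblasts under either label. Under median-of-ratios scaling, 1 of the ways of setting libraries to a common level, the share of higher genes among all 2-fold differences was 61.1% in place of 54.7% under the AID-null label, and after scaling to the library sum it was 64.3%.

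The change of each gene under the AID-null label was smaller or more negative than under the wildtype label. The difference of the log2 changes, AID-null minus wildtype, was −0.61 for Pou5f1, −1.62 for Sox2, −0.66 for Klf4 and −1.09 for Myc. For Sox2 this value combines a lower level at 3 weeks and a higher level in fibroblasts under the AID-null label. For Klf4 the fibroblast libraries already differed by −0.62. These differences of changes use all 4 libraries and were not tested.

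Between the 3-week cultures, which asks whether the genotype label went with another factor level, all 4 genes were lower in the culture labelled AID-null. Its level was 64.4% of that in the wildtype-labelled culture for Pou5f1, 64.5% for Sox2, 40.7% for Klf4 and 49.7% for Myc. On the log2 scale 1 of 4 was at least 2-fold lower, Klf4 at −1.28, where 11.6% of 15204 genes were, and 0 were higher, where 9.76% were. Myc, at −0.99, lay just short of that limit. Pou5f1 and Sox2 differed by −0.63 each, at percentiles 24.9 and 25.0 of all compared genes, Klf4 lay at percentile 6.25 and Myc at 11.7. The median gene itself differed by −0.18, and relative to it the differences were −0.45 for Pou5f1, −0.45 for Sox2, −1.10 for Klf4 and −0.81 for Myc. Of all 2-fold differences between these cultures 45.8% were higher under the AID-null label, but 59.6% were after upper-quartile and 61.5% after median-of-ratios scaling. All 4 factor genes stayed below 0 under these scalings.

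RNA of other cells differed between the same cultures. Fibroblast markers were at 24757.9 summed FPKM in the AID-null culture and 6400 in the wildtype culture, with 11 of 13 higher by 2-fold or more under the AID-null label and 0 listed at 0. Col1a1, the main collagen of fibroblasts, stood at 1143 and 159 FPKM, and Lum, a matrix proteoglycan, at 545 and 29.2 FPKM. Of 10 macrophage markers, at 498 summed FPKM in the AID-null culture and 336 in the wildtype culture, 8 were at least 2-fold higher, and 6 were listed at 0 in the wildtype culture, among them the receptor adaptor Tyrobp at 48.2 FPKM in the AID-null culture. Cd14 alone went the other way, at 147 and 219 FPKM in the AID-null and wildtype cultures. With Cd68, at 193 and 112 FPKM, it made up most of the wildtype sum. Of 10 compared keratinocyte markers 7 were at least 2-fold lower, at 46.6 summed FPKM in the AID-null culture and 216 in the wildtype culture, and 6 of 11 were listed at 0 in the AID-null culture against 1 in the wildtype culture. With a pseudocount of 5, 3 were at least 2-fold lower. Of the 7, Krt1, Ivl, Lor and Dsg3 stood at only 1.19, 3.09, 2.33 and 1.75 FPKM in the wildtype culture. Sfn made up most of the AID-null sum, at 39.1 FPKM there and 54.2 FPKM in the wildtype culture. The keratin gene Krt6b was listed at 0 in the AID-null culture and stood at 96.2 FPKM in the wildtype culture. Other markers of this list were low in both, Krt5 at 0.55 and 1.04 FPKM and Krt10 at 4.88 and 5.54 FPKM in the AID-null and wildtype cultures. Trp63 stood at 0.34 FPKM in the AID-null culture and was listed at 0 in the wildtype culture. Which cells made the Krt6b RNA, or that of the other markers, was not tested. Klf4 and Myc are also known from keratinocytes, macrophages and fibroblasts. In bulk RNA fewer cells of a type and less RNA per cell cannot be told apart, and the part of these cells in the levels of the factor genes was not tested. The 10 pluripotency markers had a median difference of −0.17 against −0.18 over all genes. Of the 10, 3 were at least 2-fold lower and 1 higher, where 11.6% of all genes were lower and 9.76% higher.

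The fibroblast libraries were compared for the starting levels. Of the 4 genes 0 were higher by 2-fold or more in the library labelled AID-null, where 4.26% of 13788 genes were, and 0 were lower, where 1.34% were. Sox2 differed by 0.99, at percentile 95.7 of all compared genes, and Klf4 by −0.62, at percentile 2.94. Pou5f1 differed by −0.03 and Myc by 0.10. Macrophage markers differed between the same libraries, at 1303 summed FPKM in the AID-null fibroblasts and 397 in the wildtype fibroblasts, with 10 of 10 higher by 2-fold or more in the AID-null fibroblasts and 0 listed at 0 in either. Of 13 fibroblast markers 0 were beyond 2-fold, and of 5 compared keratinocyte markers 2 were lower. The part of macrophages in the levels of Sox2 and Klf4 was not tested. Sox2 is also known from Schwann cell precursors and other neural crest derivatives. The neural markers summed to 144 FPKM in the AID-null fibroblasts and 116 FPKM in the wildtype fibroblasts, with 0 of 6 compared markers beyond 2-fold and 4 of 10 listed at 0 in each library. Sox10, a regulator of neural crest and Schwann cells, stood at 32.9 FPKM in the AID-null fibroblasts and 17.9 FPKM in the wildtype fibroblasts, and the part of such cells in the Sox2 level was not tested. Sox2ot, a long noncoding gene that overlaps Sox2, was at 1.26 and 0.65 FPKM in the AID-null and wildtype fibroblasts, and reached 1.28 FPKM in the AID-null culture and 2.67 FPKM in the wildtype culture. Pou5f1 has processed pseudogenes in the mouse genome. How reads shared with them or with Sox2ot were assigned is not given in the sources used here, which bears most on the low fibroblast levels.

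Pou5f1 took 93.3% of the summed FPKM of 15 Pou genes in the AID-null culture and 93.5% in the wildtype culture, and 4.11% and 3.85% in the AID-null and wildtype fibroblasts. Of its 14 relatives 10 reached 1 FPKM in any library. Between the 3-week cultures 5 of 10 compared relatives were at least 2-fold lower and 1 higher under the AID-null label, with a median of −0.91, while among all genes 11.6% were lower and 9.76% higher with a median of −0.18. Pou3f1, which encodes Oct6 of the epiblast and Schwann cells, stood at 24.0 FPKM in the AID-null culture and 72.9 FPKM in the wildtype culture, against 0.89 FPKM in the AID-null fibroblasts and a listing at 0 in the wildtype fibroblasts. Pou2f2, the Oct2 of B cells, stood at 2.70 and 10.4 FPKM in the AID-null and wildtype cultures. The widely expressed Pou2f1, or Oct1, differed little between the cultures, at 24.7 and 29.5 FPKM, and both were above the fibroblasts at 7.82 and 5.83 FPKM. Pou6f1, the highest Pou gene of the fibroblasts at 40.0 and 48.1 FPKM under the AID-null and wildtype labels, stood at 34.95 and 25.9 FPKM in the cultures. Pou4f1, Pou4f2, Pou3f4 and Pou4f3, the other genes beyond 2-fold, are named after their values were seen, and each was under 10 FPKM in every library.

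**Figure D2:**
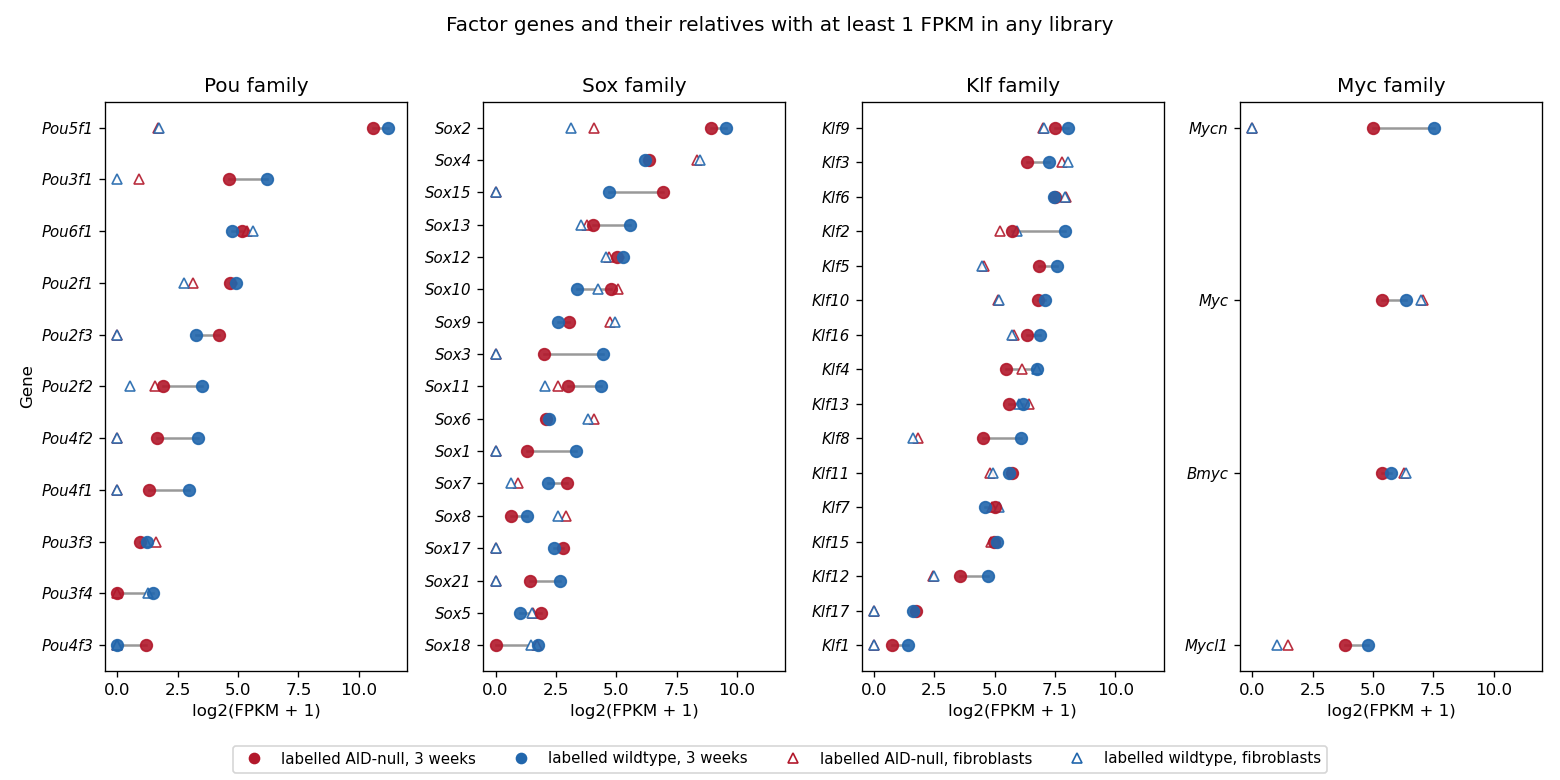
Level as log2(FPKM + 1) of the factor genes and the relatives with at least 1 FPKM in any library, with circles for the 3-week cultures, triangles for fibroblasts and a grey line joining the cultures. Pou5f1 and Sox2 top their families at 3 weeks, Klf4 lies mid-family, and Mycn, Klf2, Sox3 and Sox15 have the longest lines of the named relatives.

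Sox2 took 60.1% of the summed FPKM of 20 Sox genes in the AID-null culture and 73.4% in the wildtype culture. In fibroblasts it took 3.42% and 1.62%, and Sox4, a SoxC gene of mesenchymal and progenitor cells, took 69.2% and 75.6% under the AID-null and wildtype labels. Sox4 stood at 81.4 and 71.9 FPKM in the AID-null and wildtype cultures, against 325 and 355 FPKM in the fibroblasts. Between the cultures 6 of 16 compared relatives were at least 2-fold lower and 2 higher under the AID-null label, with a median of −0.19, near that of all genes, of which 11.6% were lower and 9.76% higher. Sox3, of the same SoxB1 group as Sox2 and X-linked, stood at 3.07 FPKM in the AID-null culture and 20.8 FPKM in the wildtype culture and was listed at 0 in both fibroblast libraries. Sox15 went the other way. This gene, whose product is known from mouse embryonic stem cells and muscle progenitors, stood at 121 FPKM in the AID-null culture and 25.0 FPKM in the wildtype culture and was listed at 0 in fibroblasts. Sox2 exceeded Sox15 by 3.94 times in the AID-null culture and by 29.5 times in the wildtype culture. Sox13 stood at 15.5 and 46.2 FPKM and the SoxC gene Sox11 at 7.07 and 19.4 FPKM in the AID-null and wildtype cultures. Sox10 stood at 26.5 and 9.37 FPKM there. The other genes beyond 2-fold, Sox1, Sox18 and Sox21, are named after their values were seen. Each of these was under 10 FPKM in every library. With a pseudocount of 5, 4 of the Sox relatives were at least 2-fold lower and 2 higher.

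Klf4 was 1 of many Klf genes at similar levels and took 4.17% of the summed FPKM of 17 Klf genes in the AID-null culture and 6.44% in the wildtype culture. In fibroblasts it took 6.99% and 9.86% under the AID-null and wildtype labels. By level it was the 10th Klf gene in the AID-null culture and the 8th in the wildtype culture, and the 5th and the 4th in the AID-null and wildtype fibroblasts. Klf2, Klf4 and Klf5 together took 20.2% in the AID-null culture and 32.6% in the wildtype culture, and within this trio Klf4 took 20.7% and 19.8%. In fibroblasts Klf4 took 54.0% and 56.6% of the trio. Klf4 was the lowest of the trio in both cultures and the highest in both fibroblast libraries.

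Klf2 had the largest difference of the Klf relatives between the cultures, at 51.2 FPKM in the AID-null culture and 238 FPKM in the wildtype culture, a log2 difference of −2.20. It stood at 35.8 and 60.3 FPKM in the AID-null and wildtype fibroblasts. Klf5, the remaining gene of the trio, named outside the rule, stood at 115 and 193 FPKM in the AID-null and wildtype cultures, against 22.7 and 21.4 FPKM in the fibroblasts. In all 3 of 15 compared relatives were lower by 2-fold or more under the AID-null label and 0 higher, with a median of −0.55, against 11.6% lower and 9.76% higher among all genes. The others were Klf8, which is X-linked, at 22.1 and 66.6 FPKM, and Klf12 at 10.9 and 25.7 FPKM in the AID-null and wildtype cultures. Both encode repressors that, like Klf3, bind the corepressor CtBP. Klf12 differed by −1.16, and by −0.98 relative to the median gene. Klf3 stood at 79.9 and 151 FPKM in the AID-null and wildtype cultures, and at 223 and 263 FPKM in the fibroblasts. Klf6 differed little between labels, at 182 and 176 FPKM in the AID-null and wildtype cultures and 244 and 241 FPKM in the fibroblasts. Klf9 stood at 179.6 and 264 FPKM in the cultures and 126 and 133 FPKM in the fibroblasts.

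**Figure D3:**
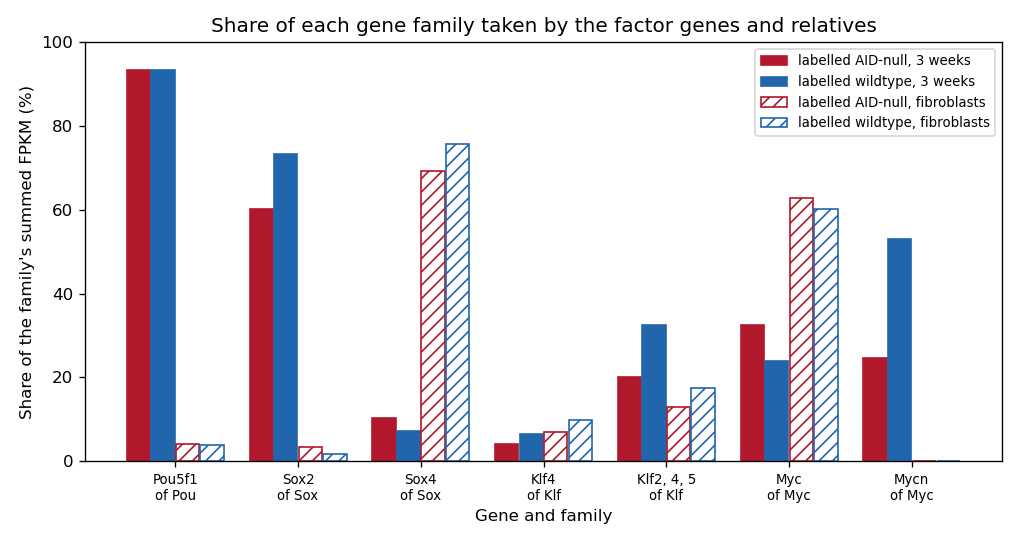
Share, in percent, of the summed FPKM of each gene family taken by the named gene or genes, with bars for the 3-week cultures and the fibroblasts under each genotype label. Pou5f1 takes 93.3% and 93.5% of its family in the AID-null and wildtype cultures, while Mycn takes 24.6% and 53.0%.

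Myc took 32.4% of the summed FPKM of 5 Myc genes in the AID-null culture and 23.8% in the wildtype culture, and 62.9% and 60.2% in the AID-null and wildtype fibroblasts. Mycn, the Myc gene most used by embryonic stem cells and early embryos, was listed at 0 in both fibroblast libraries and stood at 30.7 FPKM in the AID-null culture and 182 FPKM in the wildtype culture, a log2 difference of −2.53. The ratio of Mycn to Myc was 0.758 in the AID-null culture and 2.23 in the wildtype culture, so the order of these genes differed between the cultures. Mycl1 stood at 13.5 and 26.5 FPKM in the AID-null and wildtype cultures, against 1.81 and 1.03 FPKM in the fibroblasts. Bmyc, a short relative without the DNA-binding part, stood at 40.1 and 53.2 FPKM in the AID-null and wildtype cultures and 77.95 and 82.7 FPKM in the fibroblasts. Of 3 compared relatives 1 was lower by 2-fold or more under the AID-null label and 0 higher, against 11.6% lower and 9.76% higher among all genes.

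Genes known to carry Oct4 and Sox2 elements or to be bound by both factors in embryonic stem cells were read next. All 13 were at least 2-fold higher at 3 weeks than in fibroblasts under both labels, where 21.3% and 27.0% of all genes were under the AID-null and wildtype labels. Their medians were 6.80 under the AID-null and 7.56 under the wildtype label, against −0.05 and 0.16 over all genes. Between the cultures 4 of 13 were lower by 2-fold or more under the AID-null label and 0 higher, with a median of −0.71, against 11.6% and 9.76% of all genes. They were Lefty1, a Nodal inhibitor, at 133 and 457 FPKM, the zinc-finger factor Sall4 at 76.7 and 223 FPKM, Zscan10 at 74.9 and 188 FPKM, and the Polycomb cofactor Jarid2 at 166 and 345 FPKM in the AID-null and wildtype cultures. Jarid2, at −1.05, lay just past the limit, and relative to the median gene it differed by −0.87. Fbxo15 and the growth factor gene Fgf4, both textbook readouts of the composite element, stood at 295 and 268 FPKM in the AID-null culture and at 285 and 250.2 FPKM in the wildtype culture. Some genes of the list thus differed more than Pou5f1 and Sox2 did, and others less.

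Of 12 genes whose products are known to act on the Pou5f1 gene, 3 were lower by 2-fold or more under the AID-null label at 3 weeks and 0 higher, with a median of −0.42, where 11.6% of all genes were lower and 9.76% higher and the median gene was at −0.18. The activators Esrrb and Nr5a2, nuclear receptors, stood at 174 and 10.1 FPKM in the AID-null culture and at 414 and 22.0 FPKM in the wildtype culture, and the repressor Nr2f1, or COUP-TFI, at 5.55 and 13.65 FPKM in the AID-null and wildtype cultures. Its relative Nr2f2, named outside the rule, went the other way, at 25.9 and 14.0 FPKM in the AID-null and wildtype cultures. Of the 12 differences 10 were below 0 and 2 above. Sp3 and Tcfcp2l1 had the smallest differences, at 209 and 102 FPKM in the AID-null culture and 212 and 108 FPKM in the wildtype culture. After median-of-ratios scaling 1 of the 12 was at least 2-fold lower and 1 higher, where 7.89% of all genes were lower and 12.6% higher. After upper-quartile scaling 2 were lower and 1 higher, where 8.30% of all genes were lower and 12.2% higher.

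Known Myc targets were read in the same way. Under the AID-null label 7 of 20 were at least 2-fold higher at 3 weeks and 1 lower, with a median of 0.64, where 21.3% of all genes were higher and 17.6% lower. Under the wildtype label 14 were higher and 1 lower, with a median of 1.67, where 27.0% of all genes were higher and 17.7% lower. Myc itself differed by −1.72 under the AID-null and −0.63 under the wildtype label. Between the fibroblasts 0 of 20 were beyond 2-fold, where 4.26% of all genes were higher under the AID-null label and 1.34% lower. Between the cultures 5 of 20 were lower by 2-fold or more under the AID-null label and 0 higher, with a median of −0.76, where 11.6% of all genes were lower and 9.76% higher. After upper-quartile or median-of-ratios scaling 3 of the 20 were lower and 1 higher, where 8.30% and 7.89% of all genes were lower and 12.2% and 12.6% higher. The nucleolar protein gene Nop56 stood at 240.2 and 671 FPKM, Nolc1 at 139.5 and 371 FPKM, the mitochondrial chaperone gene Hspd1 at 352 and 835 FPKM, the nucleoside kinase gene Nme1 at 297 and 657 FPKM, and the RNA helicase gene Ddx21 at 318 and 645 FPKM in the AID-null and wildtype cultures. Shmt2, of folate metabolism, stood at 307 and 344 FPKM and the transferrin receptor gene Tfrc at 236 and 207 FPKM there. Of the 20 differences 17 were below 0 and 3 above. Besides Tfrc, those above were Ldha and Tert, named outside the rule. Ldha stood at 2962 and 1756 FPKM and Tert at 50.6 and 26.6 FPKM in the AID-null and wildtype cultures.

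Epithelial genes, among them the known Klf4 target Cdh1, were also read. All 10 were at least 2-fold higher at 3 weeks than in fibroblasts under both labels. Of all genes 21.3% and 27.0% were higher under the AID-null and wildtype labels. Under the AID-null label 3 of 10 were at least 2-fold higher than under the wildtype label and 0 lower, with a median of 0.35, against 9.76% higher and 11.6% lower among all genes. Klf4 itself differed by −1.28. The keratin genes Krt19 and Krt18 stood at 95.2 and 213 FPKM in the AID-null culture and at 24.6 and 86.3 FPKM in the wildtype culture, and the tight junction gene Cldn7 at 123 and 33.4 FPKM. The keratin gene Krt8, named outside the rule, went the other way, at 81.0 and 145 FPKM in the AID-null and wildtype cultures. Of the 10 differences 6 were above 0 and 4 below. Cdh1, which encodes E-cadherin, stood at 289 and 296 FPKM, and Epcam, an epithelial adhesion gene, at 337 and 415 FPKM in the AID-null and wildtype cultures. In fibroblasts Krt8, Krt18 and Krt19 were at 28.1, 34.1 and 29.5 FPKM with the AID-null label and listed at 0 under the wildtype label.

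**Figure D4:**
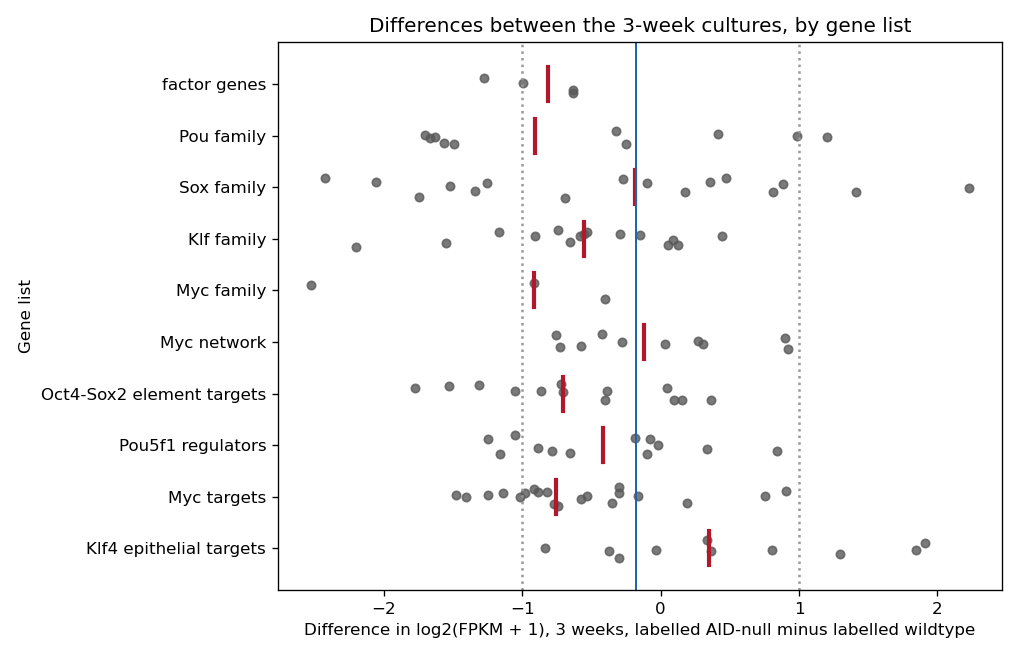
Difference in log2(FPKM + 1) between the 3-week cultures, labelled AID-null minus labelled wildtype, 1 point per compared gene, with a red bar at the list's median, a blue line at the median of all genes (−0.18) and dotted lines at the 2-fold limits. The factor genes have a median of −0.81 and the epithelial genes one of 0.35.

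Genes nearest to each factor gene were found as the 5 with the smallest Euclidean distance between log2(FPKM + 1) profiles over the 4 libraries, each centred on its own mean, among 15624 genes with at least 1 FPKM in any library. For Pou5f1 they were Trap1a, Bex1, Tdgf1, Zfp42 and Dppa5a, at distances of 0.686 to 0.819. Trap1a and Bex1 are X-linked and were listed at 0 in both fibroblast libraries. Zfp42, or Rex1, a pluripotency marker, stood at 423 FPKM in the AID-null culture and 691 FPKM in the wildtype culture, against 0.70 FPKM in the AID-null fibroblasts and a listing at 0 in the wildtype fibroblasts. For Sox2 they were 1600029D21Rik, Slc35f2, Stmn2, Tet1 and Dnmt3b, at 0.247 to 0.494. Tet1, which oxidises methylcytosine, stood at 127 and 169 FPKM in the AID-null and wildtype cultures, against 3.84 and 2.07 FPKM in the fibroblasts. Dnmt3b, a de novo DNA methyltransferase gene, stood at 193 and 389 FPKM in the AID-null and wildtype cultures and at 4.78 and 3.20 FPKM in the fibroblasts. Klf4 had Gsta1, 4930429B21Rik, Acot4, Tmed5 and Plk2 nearest, at 0.0846 to 0.171. The kinase gene Plk2 stood at 173.8 and 376 FPKM in the AID-null and wildtype cultures and at 267 and 367 FPKM in the fibroblasts. Myc had Tbc1d12, Nsun3, 0610010F05Rik, Pus7l and Aff2 nearest, at 0.0383 to 0.0928. With a pseudocount of 0.1 the nearest genes of Pou5f1 shared 0 of 5 with these, those of Sox2 3, and those of Klf4 and Myc 4 each.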

How the data were processed

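RNA levels in 4 libraries were used. The authors deposited FPKM per gene, 1 table per library. Per the submitters' processing notes TopHat and Cufflinks were used with mouse build mm9, and versions, gene annotation and filters are not given in the sources used here. Positions in the 10 bisulfite libraries are on mm9, for which no annotation was used here, so those libraries were left out. Low FPKM values had no common step between libraries: at most 3.42% of genes between 0.2 and 2 FPKM shared 1 ratio within 2%. Read depth could not be read from these values, and no counting error can be given.

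Groups came from sample titles. Differences were taken on log2(FPKM + 1), with no test, since each group had 1 library, and counted at 2-fold where either library reached 1 FPKM. Other pseudocounts, scalings and filters were tried. The difference, call and distance functions were tested on simulated data. Tools were Python 3.11.15, pandas 2.3.3, numpy 2.4.6 and matplotlib 3.10.9.

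Factor genes, lists and named-gene rule were chosen with earlier results of these data known. Named relatives had a 3-week difference of at least 2-fold and at least 10 FPKM (up to 5 per list), or were the 3 highest of a family, and in other lists also the 2 with the smallest difference. Of 176 list entries 176 were found, 4 by an older symbol. Markers are named by example. The level of 1 further gene is not reported here.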

Additional observations from a re-analysis of the deposited data

Results flagged for a closer look

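Of 48 genes named by rule in the families and the lists of targets and regulators, 2 differed in opposite directions between the 3-week culture and the fibroblasts of the same label, and with 1 library per group neither contrast was tested. The share of all genes with such opposite directions was not counted, so 2 of 48 cannot be set against it. Nr2f1 stood at 5.55 FPKM in the AID-null culture and 9.08 FPKM in the AID-null fibroblasts, but at 13.65 FPKM in the wildtype culture and 4.40 FPKM in the wildtype fibroblasts, a difference of log2 changes of −2.06. Nme1 stood at 297 FPKM in the AID-null culture and 411 FPKM in the AID-null fibroblasts, but at 657 FPKM in the wildtype culture and 412 FPKM in the wildtype fibroblasts, a difference of log2 changes of −1.14.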

How the results depend on the processing

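No paired analysis was possible because each RNA group had 1 library and no value came from a test, and for the same reason no replicate could be left out. Scaling to the library sum was added after the data were seen. Over all settings the difference between the 3-week cultures, AID-null minus wildtype, ranged from −0.63 to −0.43 for Pou5f1 and for Sox2, from −1.30 to −1.08 for Klf4 and from −1.01 to −0.79 for Myc. Myc passed the 2-fold limit at −1.01 with a pseudocount of 0.1 alone. Sox2 in fibroblasts passed it at 1.07 with that pseudocount, 1.04 after upper-quartile, 1.01 after median-of-ratios and 1.02 after library-sum scaling, and was 0.74 with a pseudocount of 5. The median of the Pou relatives at 3 weeks was −1.08 with a pseudocount of 0.1 and −1.56 over genes with at least 5 FPKM. It was −0.33 with a pseudocount of 5, where 2 of these relatives were at least 2-fold lower and 0 higher. With a pseudocount of 5 the 3-week cultures differed in 820 higher and 967 lower genes, the fibroblasts in 206 and 49, and 2058 genes were higher in the AID-null culture than in its fibroblasts. Over genes with at least 5 FPKM the fibroblasts differed in 355 higher and 76 lower genes. The Klf4 change under the wildtype label lay between −0.05 and 0.17. The median of all genes between the cultures was −0.01 after upper-quartile and 0.02 after median-of-ratios scaling. Of 230 such values (factor gene differences, list medians between the cultures and counts over all genes, each under each alternative) 216 stayed on their side of the limit, or kept their count within 1.5 times. Of these, 5 changed sign below the limit: the median of the Myc partners between the cultures after upper-quartile and median-of-ratios scaling, Pou5f1 between the fibroblasts at 0.01 after upper-quartile and 0.0026 after library-sum scaling, and Klf4 under the wildtype label after library-sum scaling. Of the other list medians, list counts and numbers of shared nearest genes, 64 counts moved by over 1.5 times or to or from 0, 12 medians no longer passed the limit and 2 newly passed it. The cause of these moves was not tested.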

Other observations

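Partners and antagonists of Myc were read as well. Of 10 such genes 0 were beyond 2-fold between the 3-week cultures, where 9.76% of all genes were higher under the AID-null label and 11.6% lower. Their median was −0.12 (0.02 after upper-quartile and 0.04 after median-of-ratios scaling, so its direction depends on the scaling). After either scaling 2 of the 10 were higher by 2-fold or more under the AID-null label, where 12.2% and 12.6% of all genes were. Max, the obligate partner of Myc, stood at 163 FPKM in the AID-null culture and 276 FPKM in the wildtype culture, against 203 and 226 FPKM in the AID-null and wildtype fibroblasts, and exceeded Myc by 4.01 and 3.38 times in the AID-null and wildtype cultures. Mxd4, a Max-binding repressor, stood at 103 and 53.9 FPKM in the AID-null and wildtype cultures, against 344 and 360.1 FPKM in the fibroblasts, and Mxi1, of the same kind, at 79.6 and 42.3 FPKM in the cultures against 29.3 and 31.8 FPKM in the fibroblasts. Max, Mxd4 and Mxi1 were chosen after their values were seen. Mlxipl and Mlxip had the smallest differences between the cultures, at 2.09 and 47.96 FPKM in the AID-null and 2.02 and 39.5 FPKM in the wildtype culture.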
